A study of Homo sapiens with 6 samples.

Results

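The mitochondrial ribosomal protein genes are the nuclear genes that encode most of the protein mass of the mitochondrial ribosome (mitoribosome). They were taken as the protein-coding genes whose symbol begins with MRPL or MRPS and a number, and 78 of the 28563 genes in the expression table met this rule. The names stand for the large and the small subunit, although MRPS18A and MRPS30 are now placed in the large subunit and MRPS36 is now known as a subunit of the alpha-ketoglutarate dehydrogenase complex. By present knowledge the 78 genes therefore comprise 51 large-subunit genes, 26 small-subunit genes and MRPS36.

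Mitochondria keep a small genome of their own, and the mitoribosome translates its mRNAs into core subunits of the respiratory chain and of ATP synthase. Its ribosomal RNAs are transcribed from mitochondrial DNA, whereas all its proteins are made in the cytosol and imported, so that assembly draws on both genomes. Many of these proteins have a counterpart in bacterial ribosomes and others occur only in mitochondria. In the liver, as in other tissues of high respiration, the products of this system carry oxidative phosphorylation.

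HepG2, an established line derived from a human liver cancer, was treated for 24 h with polydatin (PD), a glucoside of resveratrol, or with its solvent DMSO alone. The labels give 336 µM PD, while the study's text gives a somewhat lower dose. Each group had 3 dishes of this line, with 1 library of poly(A)-selected RNA per dish, and all libraries came from the same line and culture protocol. The question was which transcripts differ between PD-treated and control cells.

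The deposited values are FPKM, in which the fragments of a gene are divided by its exon length in kilobases and by the library's total. Totals worked back from these values were between 16308476 and 18071632 fragments per library, and the 78 genes together took between 0.451% and 0.465% of them. Of 19 genes typical of hepatocytes, only 9 had an entry in the expression table and could be analysed. Among these 9, 2 (CPS1 and RBP4) reached 1 FPKM in any library. RBP4 did so in PD alone, with 0.479, 0.371 and 0.323 FPKM in DMSO and 1.11, 1.73 and 1.06 FPKM in PD. The other 7, among them HNF4A, stayed at or below 0.172 FPKM, so these markers were near 0 and the name HepG2 is used here as the labels give it. These are bulk values, in which fewer cells of a kind and less RNA per cell cannot be told apart.

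As a whole, the summed FPKM of the family was similar in PD and DMSO while its members moved in both directions. This sum is not a share, because the FPKM of all genes together was higher in PD. That total ran from 252344 to 255022 in DMSO and from 263094 to 265893 in PD, so similar sums are a smaller part of it in PD. The FPKM of the 78 genes summed to 2101, 2021 and 2123 in the DMSO libraries and to 2086, 2104 and 2077 in the PD libraries. The PD sums lay within the range of the DMSO sums, with means of 2081 ± 53.5 (SD, n = 3) and 2089 ± 13.7 (SD, n = 3). The ratio of summed large-subunit to summed small-subunit FPKM was likewise between 1.81 and 1.84 in DMSO and in PD. By contrast, the mitochondrial rRNAs rose, as described further on, and the summed FPKM of the mRNAs encoded in mitochondrial DNA was 1.20-fold higher in PD.

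**Figure D1:**
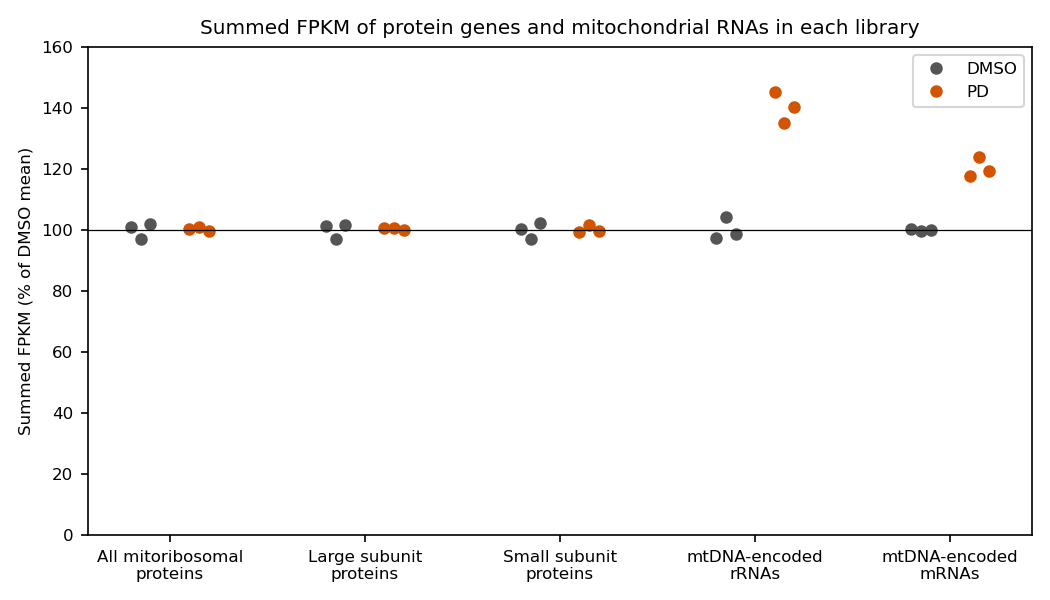
Summed FPKM in each library as a percentage of the DMSO mean, for all mitochondrial ribosomal protein genes, for the large-subunit and small-subunit genes, and for the rRNAs and mRNAs encoded in mitochondrial DNA; each point is 1 library (3 DMSO, grey; 3 PD, orange). The protein genes stay between 97.1% and 102% in all libraries, while the rRNAs reach 135% to 145% and the mRNAs 118% to 124% in PD.

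Differences between PD and DMSO were tested by limma on log2(FPKM + 1). The test took in 14400 genes whose FPKM averaged 0.5 or more, and a Benjamini-Hochberg adjusted p of 0.05 or less over all of them was the threshold for a call. Of the 78 genes, 76 passed the filter, and MRPL38 and MRPS24 did not. Among the 76, 35 (46.1%) were called, against 58.1% of all genes tested. Of these, 15 (19.7%) were higher in PD, where 31.9% of all genes were, and 20 (26.3%) were lower, where 26.2% of all genes were. Without PD replicate 3, 13 were lower, and over all genes tested the lower count went from 3780 to 3318. The family thus had a share of lower genes close to that of the transcriptome and a smaller share of higher genes.

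The changes were also small. The log2 fold changes of the 76 genes ran from -0.54 to 1.08 with a median of -0.06, against a median of 0.01 over all genes tested, and their median size regardless of sign was 0.12 against 0.27. MRPL41 was the single member with a change of at least 2-fold (3.61% of all genes tested passed both thresholds, 2.04% of them upward). In 41 of the 76 genes the PD and DMSO libraries did not overlap, 17 with PD above and 24 with PD below, while this was so for 65.4% of all genes tested. The 41 genes that were not called, some of which also had groups without overlap, were not shown to be equal in both groups. Nevertheless, on the log2(FPKM + 1) scale the 95% interval of the difference stayed within 1.2-fold either way for 29 of them and within 1.5-fold for 40. This scale narrows the intervals of genes with low FPKM, such as MRPL46 and MRPS18C. A fit on fragments (limma voom) put their log2 fold changes at -0.31 ± 0.19 and -0.31 ± 0.22 (SE). The narrow intervals also rest on libraries that agreed closely, since the SD was a median of 4.48% of the mean within a group. However, the SD reached 32.2% in MRPS28, a gene of about 1 FPKM.

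The counts by subunit stand beside 31.9% higher and 26.2% lower over all genes tested. Among the large-subunit proteins with a bacterial counterpart, 5 of 30 genes were higher and 12 were lower, with a median log2 fold change of -0.10. Among the large-subunit proteins found only in mitochondria, 6 of 20 tested genes were higher and 2 were lower, with a median of 0.05. For the small subunit, 2 of 15 tested genes with a bacterial counterpart were higher and 3 lower (median -0.08), and 2 of 10 mitochondria-specific genes were higher and 3 lower (median -0.06). The difference between these groups of genes was not tested. The conserved large-subunit genes had 11 calls in place of 17 when DMSO replicate 3, PD replicate 2 or PD replicate 3 was left out, and a correction for GC content and length gave 14 calls in place of 8 among the mitochondria-specific ones. MRPS36, which is no part of the mitoribosome, had 9.83 ± 0.967 FPKM in DMSO and 10.1 ± 1.07 FPKM in PD (SD, n = 3) and was not called (adjusted p = 0.74).

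**Figure D2:**
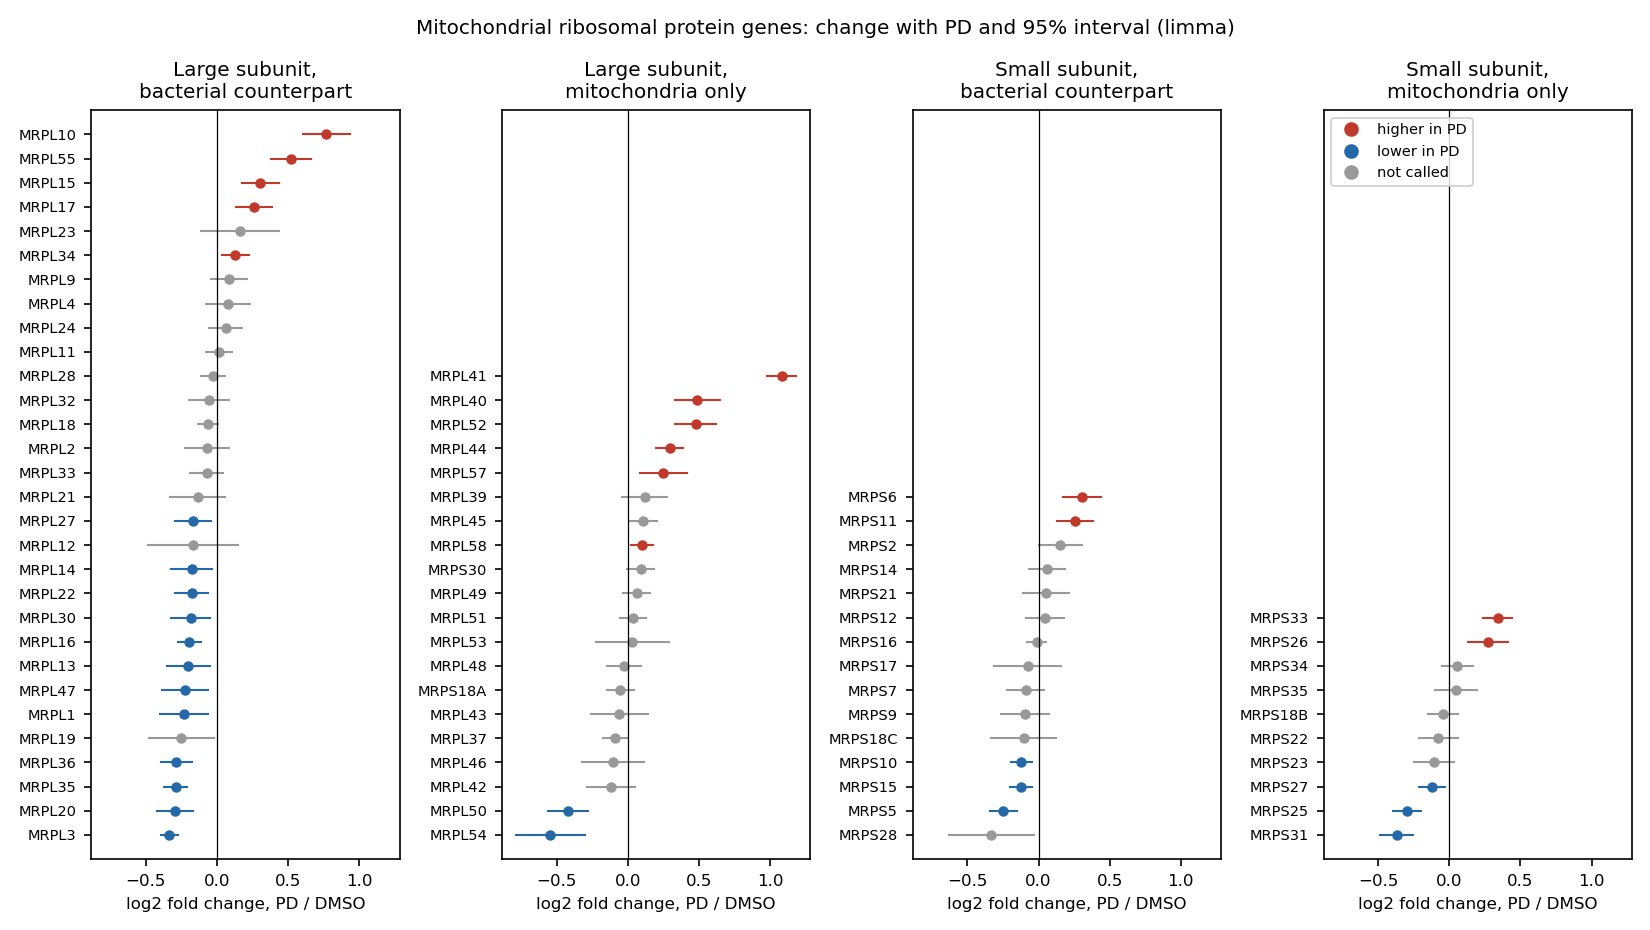
Log2 fold change of PD over DMSO on the log2(FPKM + 1) scale with its 95% interval (limma) for the tested members, each subunit split by whether bacteria have a counterpart; red marks genes called higher in PD, blue genes called lower and grey genes not called. Most points lie close to 0, MRPL41 stands alone past a log2 fold change of 1, and the first panel holds 12 genes called lower against 5 called higher. Over all genes tested, 26.2% were called lower and 31.9% higher.

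MRPL41 showed the largest rise. It encodes a mitochondria-specific protein of the large subunit that is also known as a binding partner of BCL2, and the gene (ENSG00000182154) lies on chromosome 9 of GRCh38 from 137551879 to 137552555 on the plus strand. Its level was 26.8, 24.3 and 25.8 FPKM in DMSO and 56.2, 56.3 and 53.6 FPKM in PD. All 3 PD libraries lay far above all 3 DMSO libraries, with less spread within either group than between them. The log2 fold change was 1.08 ± 0.04 (SE, adjusted p = 3.5e-06), a 2.16-fold ratio of the means. No exon of another annotated gene overlaps MRPL41, and between 514 and 1281 fragments stood behind its values.

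The 250 bases before the MRPL41 start, at chr9:137551629-137551878 on the plus strand, are shown because they stand apart in sequence from other promoters (RefSeq, GRCh38.p14), and capitals mark each copy of a 12-base repeat.
MRPL41: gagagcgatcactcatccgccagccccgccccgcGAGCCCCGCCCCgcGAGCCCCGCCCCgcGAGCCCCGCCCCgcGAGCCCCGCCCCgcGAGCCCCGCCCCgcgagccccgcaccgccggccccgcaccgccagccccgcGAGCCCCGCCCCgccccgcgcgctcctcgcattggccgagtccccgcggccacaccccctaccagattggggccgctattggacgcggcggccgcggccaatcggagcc
The repeat in capitals occurs 6 times here, whereas 0.0649% of 12332 protein-coding promoters of 300 bases hold at least 2 copies on either strand. The shorter run CCCGCCC, the core of a GC box, matched 8 times, which 0.292% of promoters reach (median 1). These letters were searched for after the sequence had been seen, they are a description of the window, and whether any factor binds there was not measured.

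MRPL10 had the next largest rise. Its protein anchors copies of MRPL12 to the large subunit and so forms the base of the stalk, which recruits the translation factors. The gene (ENSG00000159111, chromosome 17, 47823272 to 47831541, minus strand) had 14.8, 12.6 and 14.3 FPKM in DMSO and 23.9, 23.0 and 26.2 FPKM in PD. Again the groups did not overlap, and the log2 fold change was 0.77 ± 0.07 (SE, adjusted p = 8.7e-05). The other 3 stalk genes were not called with all libraries in the fit. MRPL11, whose protein sits beside MRPL10 at the stalk base, had a log2 fold change of 0.01 (95% interval -0.08 to 0.10), and the sign of this value turned under other scalings. MRPL12 itself had 3.66, 3.37 and 3.75 FPKM in DMSO and 4.09, 2.50 and 2.80 FPKM in PD, with a log2 fold change of -0.17 (-0.49 to 0.15). PD replicate 1 stood above the other PD libraries, and without it the value was -0.33 (adjusted p = 0.011) and MRPL12 was called lower. Between 45 and 76 fragments were counted on MRPL12, and 69.5% of its canonical transcript lies in a protein-coding gene on the same strand, so its level is uncertain. MRPL53 was at 0.03 (-0.23 to 0.29), with 99.2% of its canonical transcript inside exons of other genes.

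The central protuberance of the large subunit, which contacts the head of the small subunit, held 3 of the 5 largest rises. MRPL55, the counterpart of bacterial L31, had 14.9, 13.2 and 15.1 FPKM in DMSO and 21.7, 21.5 and 20.0 FPKM in PD, and its log2 fold change was 0.52 ± 0.06 (SE, adjusted p = 0.00025). MRPL40, a mitochondria-specific protein, had 24.2, 21.6 and 20.5 FPKM in DMSO and 29.5, 32.7 and 31.9 FPKM in PD, and its log2 fold change was 0.49 ± 0.07 (SE, adjusted p = 0.00061). MRPL52, likewise mitochondria-specific, had 5.96, 5.59 and 6.37 FPKM in DMSO and 8.23, 8.65 and 9.22 FPKM in PD, with a log2 fold change of 0.48 ± 0.06 (SE, adjusted p = 0.00046). In each of the 3 genes every PD library lay above every DMSO library. MRPL58, a peptidyl-tRNA hydrolase that also serves to free stalled mitoribosomes, was at 35.6 ± 0.723 FPKM in DMSO and 38.3 ± 0.760 FPKM in PD (SD, n = 3, adjusted p = 0.03), a call made in 7 of 15 ways of fitting the data. MRPL27 fell (log2 fold change -0.17, adjusted p = 0.029, called in 10 of the 15), and MRPL18, MRPL46 and MRPL48 were not called, at -0.06, -0.10 and -0.02. With MRPL38 below the filter, 4 of the 8 tested genes of the central protuberance were higher and 1 was lower, where 31.9% and 26.2% of all genes tested were. Leaving out PD replicate 2 or 3 gave 3 higher and 0 lower, and without DMSO replicate 3 the counts were 4 and 0. Under median-of-ratios or upper quartile scaling, 3 were higher and 2 lower.

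Around the exit of the tunnel through which the new chain leaves, 2 of 8 genes were higher and 3 were lower, beside 31.9% and 26.2% of all genes tested. The lower count was 1 without DMSO replicate 3, without PD replicate 1 or with the GC and length correction. MRPL44, which has a fold like that of RNase III, rose by 0.29 on the log2 scale (adjusted p = 0.00066), although an antisense gene overlaps 13.3% of its canonical transcript. MRPL17 rose by 0.26 (adjusted p = 0.0046). MRPL50 fell most, from 9.73, 8.56 and 8.98 FPKM in DMSO to 6.33, 6.93 and 6.33 FPKM in PD. These groups did not overlap, and the log2 fold change of MRPL50 was -0.42 ± 0.06 (SE, adjusted p = 0.00076). MRPL22, which lines the tunnel in bacteria too, fell by 0.18 on the log2 scale (adjusted p = 0.018), and MRPL47, which shares exons with ACTL6A, fell by 0.23 (adjusted p = 0.026). These 2 calls were made in 11 and 8 of the 15 ways of fitting. MRPL45, which ties the mitoribosome to the inner membrane, MRPL23 and MRPL24 were not called, at 0.11, 0.16 and 0.06.

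**Figure D3:**
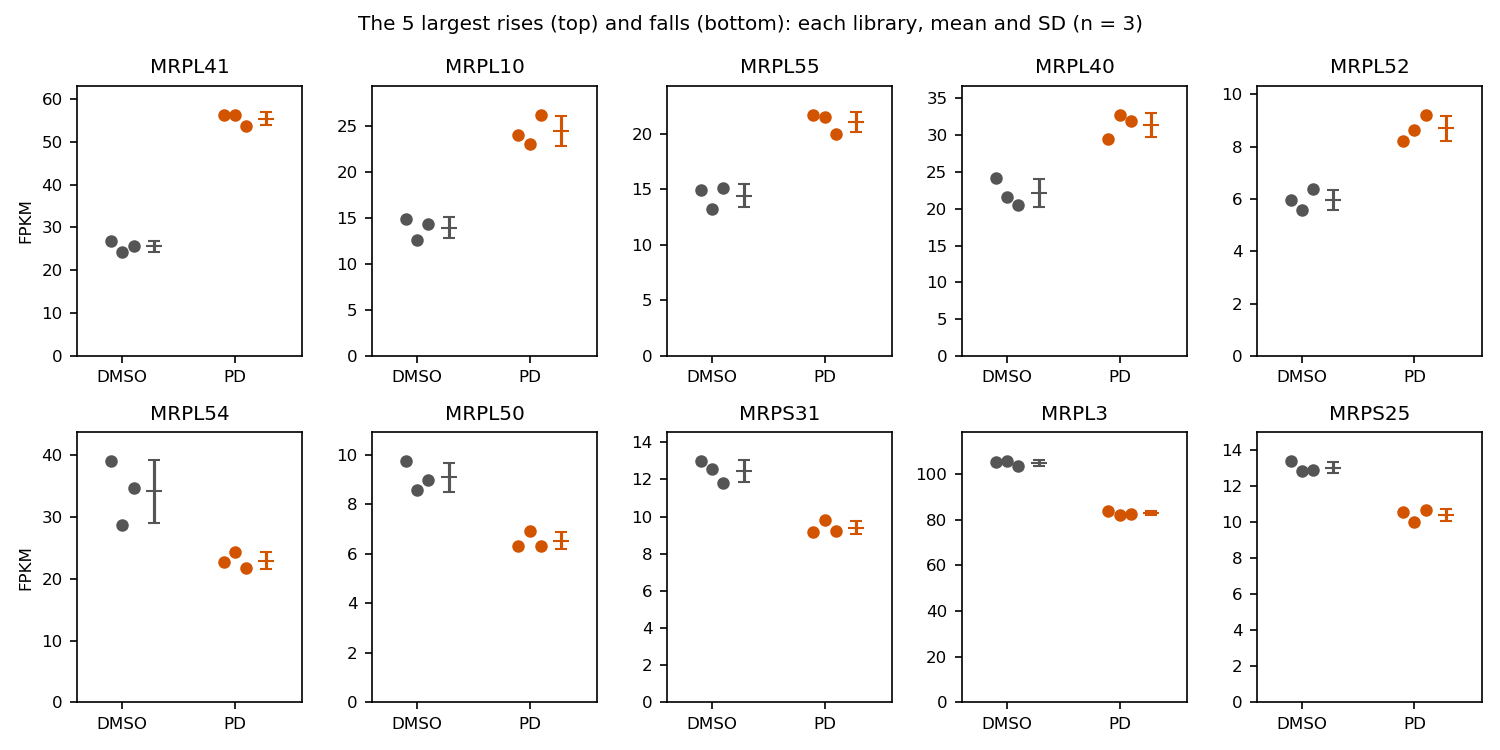
FPKM in each library for the 5 largest rises (top row) and the 5 largest falls (bottom row) among the called members, with each vertical axis starting at 0; points are libraries (DMSO grey, PD orange) and the bar beside them is the mean with its SD (n = 3). In all 10 genes the groups do not overlap, and the DMSO libraries of MRPL54 spread the most, from 28.7 to 39.0.

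On the log2(FPKM + 1) scale, the largest fall among the called genes was that of MRPL54, a mitochondria-specific protein of the large subunit whose gene (ENSG00000183617) lies on chromosome 19 from 3762682 to 3768575. It had 39.0, 28.7 and 34.6 FPKM in DMSO and 22.7, 24.3 and 21.7 FPKM in PD. The groups did not overlap, yet the DMSO libraries were uneven, and the log2 fold change of -0.54 had an SE of 0.10 (adjusted p = 0.003). MRPS28, a conserved small-subunit gene, had a lower ratio of means (0.620 against 0.672 for MRPL54) but was not called (adjusted p = 0.056). Its level was 1.31, 1.21 and 0.933 FPKM in DMSO and 0.975, 0.628 and 0.540 FPKM in PD, with overlapping groups on 16 to 41 fragments, and voom on fragments put it at -0.70 (adjusted p = 0.035). MRPL3, the counterpart of a protein close to the catalytic centre of bacterial ribosomes, combined a high level with a precise fall. It had 105, 106 and 103 FPKM in DMSO and 84.0, 82.2 and 82.6 FPKM in PD, with at least 3657 fragments per library. Its log2 fold change was -0.34 ± 0.03 (SE, adjusted p = 4.1e-05), with an antisense gene over 14.2% of its canonical transcript.

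Other conserved proteins of the large subunit fell by similar amounts. MRPL35 went from 17.4 ± 0.288 to 14.1 ± 0.157 FPKM (adjusted p = 0.00031) and MRPL36 from 42.7 ± 1.96 to 34.9 ± 1.38 FPKM (SD, n = 3, adjusted p = 0.0013). MRPL20, which shares 19.7% of its canonical transcript with the antisense gene MRPL20-AS1, went from 31.8 ± 2.41 to 25.7 ± 0.465 FPKM (adjusted p = 0.0027). On the other side, MRPL15 rose from 38.7 ± 2.64 to 48.1 ± 1.90 FPKM (SD, n = 3, adjusted p = 0.0024).

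Among the small-subunit genes called by limma, the largest fall and the largest rise on the log2(FPKM + 1) scale were both in mitochondria-specific proteins, whereas voom on fragments gave larger falls for MRPS24 and MRPS28, which have bacterial counterparts. MRPS31 had 13.0, 12.6 and 11.8 FPKM in DMSO and 9.20, 9.80 and 9.21 FPKM in PD (log2 fold change -0.37 ± 0.05, SE, adjusted p = 0.00052). MRPS33 had 7.23, 6.86 and 6.85 FPKM in DMSO and 9.28, 9.02 and 9.00 FPKM in PD (0.34 ± 0.04, SE, adjusted p = 0.00042). Neither gene had overlapping groups or shared exons. MRPS25 fell by 0.30 on the log2 scale (adjusted p = 0.00069) and MRPS6, the counterpart of bacterial S6, rose by 0.30 (adjusted p = 0.0028). However, 44.1% of the canonical transcript of MRPS25 lies in exons of other genes, most of it in a long non-coding gene on the same strand (1982 of 4572 bases) and some opposite NR2C2, and 33.1% of that of MRPS6 lies in exons of SLC5A3 and a further gene on its own strand, so both are uncertain. The 3 paralogs related to bacterial S18 were not called by limma, with 0 of the 3 at an unadjusted p under 0.05 and 0 called by voom on fragments. Their log2 fold changes were -0.05 for MRPS18A, -0.04 for MRPS18B and -0.11 for MRPS18C, and their levels differed widely, at 23.4 ± 0.654, 56.8 ± 2.17 and 0.563 ± 0.0750 FPKM in DMSO (SD, n = 3). MRPS18C had 36 to 53 fragments, and every PD library lay below every DMSO library. For this gene voom on fragments gave -0.31 ± 0.22 (SE). RSPH9, on the opposite strand, overlaps 60.6% of the canonical transcript of MRPS18A.

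The 8 largest rises and the 8 largest falls among the called genes were each called under all 15 ways of fitting the data, whereas 11 of the 15 higher and 10 of the 20 lower genes were. The called genes had at least 189 fragments in every library. Composition of the sequence moved with the fold changes to some extent. Over the 76 genes, Spearman's rho between log2 fold change and GC content was 0.34, and it was 0.20 over all genes tested. It is a description over genes that share the same 6 libraries, and its part in the changes was not tested beyond the fit with GC content removed, in which 18 members were higher and 19 lower. MRPL41, with 66.7% GC, and MRPL54, with 62.5% GC, moved in opposite directions.

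The members differed widely in level. Mean FPKM over the 6 libraries ran from 0.227 for MRPS24 to 208 for MRPS34, although the proteins are, as far as known, present in equal number in a mitoribosome apart from MRPL12. After MRPS34 came MRPL37 with 106, MRPL3 with 93.9 and MRPL24 with 75.5 FPKM, and the lowest after MRPS24 were MRPL38 with 0.342, MRPS18C with 0.507 and MRPL46 with 0.523 FPKM. Every library of MRPS34 lay above every library of MRPL37, whereas the libraries of MRPL37 and MRPL3 overlapped, as did those of MRPS24 and MRPL38 and those of MRPL38, MRPS18C and MRPL46.

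The lowest levels coincided with shared exons. For 31 of the 78 genes, some bases of the canonical transcript lie inside exons of other annotated genes, and for 10 genes more than 50% do. These 10 genes had a median of 1.67 FPKM, against 20.5 FPKM for the rest, and 7 of the 8 lowest members were among them. Thus MRPS24 shares 90.9% of its canonical transcript with other genes, including a read-through gene that contains it, MRPS18C shares 83.6% with ABRAXAS1 on the opposite strand, and MRPL46 shares 73.4%. How the counting assigned fragments on shared exons was not tested. With lengths taken from the canonical transcript instead of all exons, the median level in DMSO was 3.71 for these 10 and 39.1 for the rest, so the gap was present on this scale too. Leaving the 10 out changed little in the counts, with 15 of 68 genes higher and 19 lower.

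**Figure D4:**
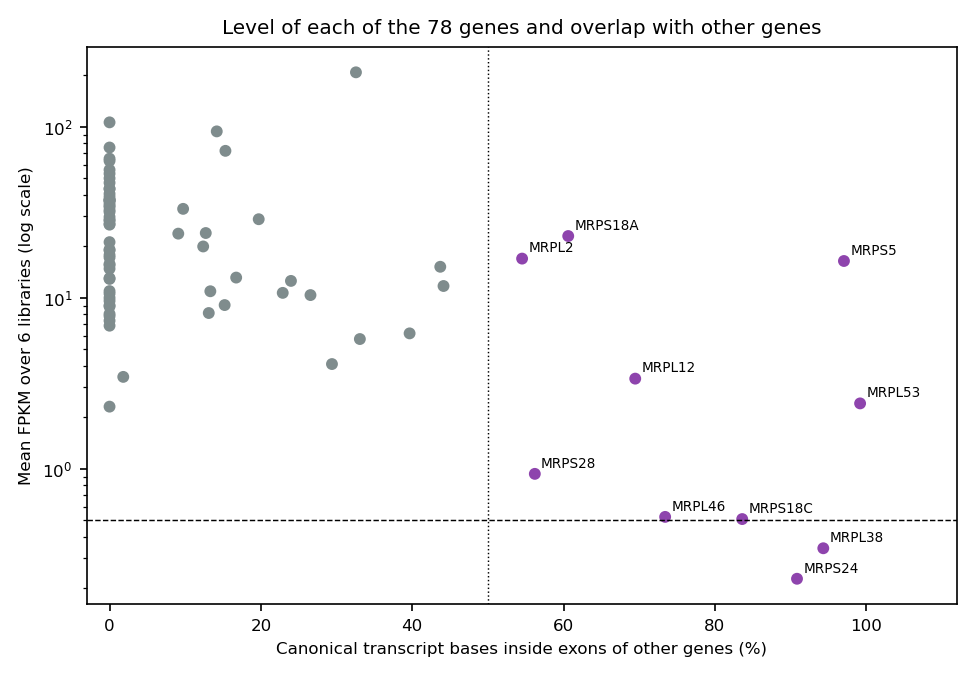
Mean FPKM over the 6 libraries (log scale) of each of the 78 genes against the percentage of its canonical transcript that lies inside exons of other genes; the dashed line is the filter at 0.5 FPKM and the dotted line marks 50%. The 10 genes to the right of the dotted line, named and in purple, include the 5 lowest of all, while MRPL2, MRPS5 and MRPS18A lie among the other members.

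Both genes below the filter belong to this group. MRPS24 had 0.332, 0.297 and 0.425 FPKM in DMSO and 0.0635, 0.175 and 0.0704 FPKM in PD. The PD libraries lay below, but on 3 to 19 fragments per library, and a fit on fragments that kept the gene put its log2 fold change at -1.78 ± 0.44 (SE, adjusted p = 0.0013). MRPL38 had 14 to 30 fragments and overlapping groups. In the table, 17 pseudogenes of these genes are also listed, none of which reached 1 FPKM (highest 0.981).

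Nuclear genes for mitochondrial proteins are commonly driven from promoters with sites for NRF1, ETS factors such as GABP, and YY1. These letters were therefore searched for in windows of 300 bases (250 before the start and 50 from it, RefSeq, GRCh38.p14). Of the 78 genes, 69 had a window. The ETS core CCGGAAG, on either strand, was in 29 of them (42.0%), against 16.9% of 12332 promoters. The YY1 core AAGATGGC was in 20 (29.0%), against 4.71%, and its longer form, the same letters followed by GGC, in 10 (14.5%), against 1.74%. The NRF1 palindrome, spelled out in capitals in the window of MRPL17 further on, was in 1 (1.45%), against 2.01%. In 27 windows none of these letters was found.

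The windows that follow, of 30 bases each, show the YY1 letters in capitals in genes that fell or rose with PD, read 5′ to 3′ on the strand that carries the match.
MRPL50, chr9:101398577-101398606, minus strand: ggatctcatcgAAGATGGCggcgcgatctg
MRPL22, chr5:154941093-154941122, plus strand: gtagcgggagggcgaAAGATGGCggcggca
MRPS10, chr6:42217834-42217863, minus strand: tcgggaccggcAAGATGGCggcgcggacag
MRPS27, chr5:72320206-72320235, minus strand: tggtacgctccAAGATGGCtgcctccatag
MRPL20, chr1:1407260-1407289, minus strand: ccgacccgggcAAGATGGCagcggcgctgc
MRPL36, chr5:1799854-1799883, plus strand: tgccaggaaggAAGATGGCggcgggggggg
MRPL52, chr14:22829812-22829841, plus strand: aacccagattcAAGATGGCgacttcctgct
In 15 of the 20 genes, the first 5 shown here among them, the match lies on the gene's own strand past the start. In these genes its first base was at position 7 to 36, counted from 1 at the start. A match on the gene's own strand anywhere past the start was thus in 15 of 69 member windows, against 2.71% of all promoters. In 12 of these 15 the ATG inside the letters is an annotated start codon, as in MRPL50, MRPL22, MRPS10 and MRPS27, so that the same bases also begin the coding sequence. In MRPL36 the match is on the opposite strand to the gene, and in MRPL52 it lies before the start.

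The next windows show the ETS letters of 2 genes that fell and 1 that rose, and the NRF1 palindrome of MRPL17, which rose.
MRPL3, chr3:131502985-131503014, minus strand: tgtaaaacgcaCCGGAAGtgggtccggcgg
MRPS31, chr13:40771204-40771233, minus strand: aaggcgccaggCCGGAAGcggaagagaggg
MRPL40, chr22:19432523-19432552, plus strand: ggggcgcacgcCCGGAAGcggcgagggtag
MRPL17, chr11:6683403-6683432, minus strand: caggctctgatGCGCATGCGCaaacacgtt
By direction of change, the YY1 letters were in 7 of 18 windows of lower genes, 1 of 13 of higher genes (MRPL52) and 10 of 36 of genes not called. The ETS letters were in 9 of 18, 5 of 13 and 14 of 36. These counts were not tested, a match is no evidence of binding, and MRPL41 held none of the 3 motifs.

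Many mitochondrial genes share a start region with a neighbour on the other strand, and 19 of the 78 had such a partner within 1000 bases, and 15 of these partners were tested. The pair MRPS11 and MRPL46, with starts 63 bases apart, consists of 2 members. MRPS11 rose from 8.39, 7.58 and 8.51 FPKM to 9.62, 10.2 and 10.0 FPKM (log2 fold change 0.26, adjusted p = 0.0047), whereas MRPL46 had a log2 fold change of -0.10 and was not called. The level of MRPL46 rests on 48 to 67 fragments, with 73.4% of its canonical transcript shared. All its PD libraries lay below all its DMSO libraries, and voom on fragments gave -0.31 ± 0.19 (SE). MRPL27 fell while its partner EME1, a subunit of a DNA-repair nuclease, rose by 0.69 on the log2 scale. MRPL50 fell by 0.42 while its partner ZNF189 was called higher, at 0.15. MRPL57 and its partner SKA3, a kinetochore gene, were both higher, at 0.25 and 0.46. MRPL13 and MTBP were both lower, at -0.20 and -0.42, as were MRPL30 and MITD1, at -0.18 each. The calls of MRPL57, MRPL13 and MRPL30 were made in 9, 7 and 10 of the 15 ways of fitting. Partners therefore moved in the same direction in some pairs and not in others.

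The other parts of mitochondrial translation were described by lists of genes chosen by function. In all of them called shares stand beside 31.9% higher and 26.2% lower over all genes tested. Among 6 mitoribosomal proteins with other names, 1 was higher and 2 were lower. PTCD3, a small-subunit protein of the pentatricopeptide repeat family, had 10.4, 10.7 and 10.0 FPKM in DMSO and 5.38, 5.14 and 5.50 FPKM in PD. This fall (log2 fold change -0.84 ± 0.05, SE, adjusted p = 1.1e-05) was larger than that of any gene named MRPL or MRPS that was tested. DAP3, a GTP-binding protein of the small subunit, fell by 0.13 and CHCHD1 rose by 0.13 on the log2 scale, and the list had 1 call in place of 3 without DMSO replicate 1 or 2 or PD replicate 1 or 3.

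The mitochondrial rRNAs are the RNA partners of these proteins. MT-RNR1, the small-subunit rRNA, had 271, 286 and 289.9 FPKM in DMSO and 408, 393 and 391 FPKM in PD, and MT-RNR2, the large-subunit rRNA, had 2052 ± 80.6 and 2875 ± 109 FPKM (SD, n = 3). Both had a log2 fold change of 0.49, with adjusted p = 2.5e-05 and 4.8e-05, and neither had overlapping groups. Of the 13 mRNAs encoded in mitochondrial DNA, 9 were higher, led by MT-CYB with 0.42, MT-ATP6 with 0.41 and MT-CO3 with 0.39 on the log2 scale, and MT-ND6 was lower at -0.22. MT-ND6 is the single mRNA encoded on the light strand, and with the GC and length correction 0 of the 13 were lower, so that its call was lost. Without PD replicate 2, 2 were lower. Genes of the mitochondrial genome took 3.13% to 3.15% of fragments in DMSO and 3.69% to 3.85% in PD. Since the libraries were made from poly(A) RNA, these are levels of captured transcripts, and whether capture differed between the groups was not tested.

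Assembly factors of the mitoribosome, which modify its rRNA or help subunits to join, comprised 30 genes, of which 8 were higher and 4 lower. With the GC and length correction the balance turned, at 6 higher and 9 lower. RPUSD3, a pseudouridine synthase homologue, had 4.20, 4.10 and 3.75 FPKM in DMSO and 7.91, 8.06 and 8.14 FPKM in PD (log2 fold change 0.85 ± 0.05, SE, adjusted p = 1.5e-05). MPV17L2, a membrane protein that associates with the large subunit, rose by 0.79 (adjusted p = 2.3e-05). FASTKD2, which binds the large-subunit rRNA, fell by 0.63 (adjusted p = 0.00016). These 3 changes were in both directions and larger on this scale than those of any tested member but MRPL41 and MRPL10.

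Of 15 factors for mitochondrial translation, 4 were higher and 6 were lower. MTFMT, which formylates the initiator methionyl-tRNA, rose by 0.59 (adjusted p = 0.00087) and the initiation factor MTIF3 rose by 0.49 (adjusted p = 0.0022). LRPPRC, which stabilises mitochondrial mRNAs, fell from 35.4 ± 1.30 to 24.0 ± 1.51 FPKM (SD, n = 3, log2 fold change -0.54, adjusted p = 0.0001). Of 10 genes for transcription, replication and upkeep of mitochondrial DNA, 5 were lower and 0 were higher by limma, with 0 higher also at an unadjusted p under 0.05 and by voom, but 1 higher with the GC and length correction. TFB2M, a transcription factor that opens the mitochondrial promoters, fell from 42.3 ± 2.43 to 26.1 ± 0.428 FPKM (adjusted p = 2.4e-05), TWNK, the replicative helicase, fell by 0.66 (adjusted p = 2.8e-05), and MTPAP, the poly(A) polymerase of mitochondria, fell by 0.46 (adjusted p = 0.00048). TWNK shares its start region and some antisense exon sequence with MRPL43, which was not called.

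Of 12 tested nuclear regulators known to act on genes of this kind, 7 were lower and 0 were higher by limma. MYC had 196, 235 and 219 FPKM in DMSO and 123, 103 and 109 FPKM in PD (log2 fold change -0.95 ± 0.08, SE, adjusted p = 6.7e-05). PPRC1, a coactivator related to PGC-1, fell by 0.62 (adjusted p = 3.7e-05) and GABPB1, a subunit of the ETS factor GABP, fell by 0.52 (adjusted p = 0.00025). The factors whose sites were searched for above were lower as well, at -0.46 for NRF1, -0.37 for GABPA and -0.32 for YY1. At an unadjusted p under 0.05 likewise 0 regulators were higher, while voom on fragments called ESRRA and PPARGC1B higher, and 1 regulator was higher without PD replicate 1. What these mRNA levels meant for the members' promoters was not tested.

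**Figure D5:**
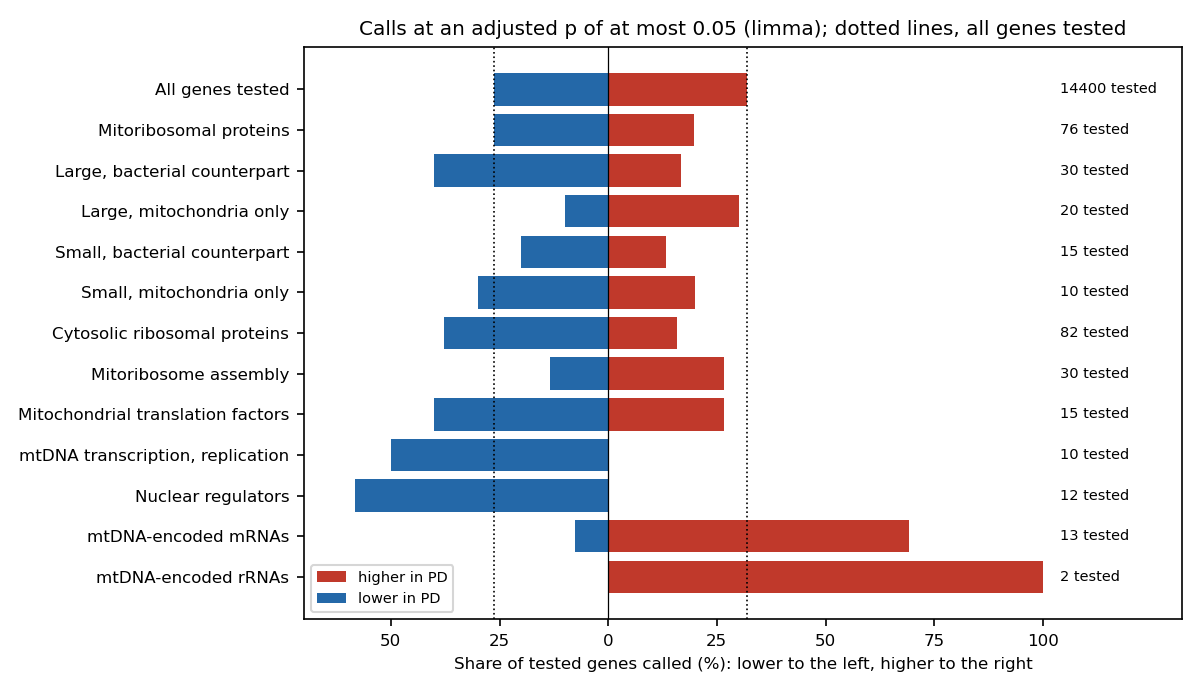
Percentage of the tested genes of each list called higher (red, to the right) or lower (blue, to the left) in PD by limma (adjusted p of 0.05 or less), with the number tested beside each bar and dotted lines at the shares of all genes tested. The mitoribosomal proteins lie at 19.7% higher and 26.3% lower, the lists for mitochondrial DNA upkeep and for regulators hold lower genes alone, and the mitochondrial rRNAs and most mitochondrial mRNAs are higher.

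The cytosolic ribosomal proteins, the family closest in function, were compared last. Of 82 tested genes, 13 (15.9%) were higher and 31 (37.8%) were lower, with a median log2 fold change of -0.08. Their median change regardless of sign was 0.13, against 0.12 for the mitochondrial family, so both families had small changes in this experiment, and the difference in their shares was not tested. RPL26, RPL22L1 and RPL39L had the largest changes of the cytosolic family, at -0.83, -0.79 and 0.56.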

How the data were processed

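RNA from 3 dishes of HepG2 cells treated with PD and 3 treated with DMSO was analysed. The authors selected poly(A) RNA, used HISAT2 (hg38) for alignment of the paired reads and HTSeq 0.6.0 for counts per gene, and deposited FPKM, the unit used here. Whether counting used strand is not given in the sources used here. All value columns belonged to the 6 samples.

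Genes averaging 0.5 FPKM or more were fitted with limma 3.58.1 (R 4.3.3; trend, no covariates) on log2(FPKM + 1), after the fit had been tested on simulated data, and p-values were adjusted over the 14400 genes. Fold changes are on this scale, which understates those of genes with low FPKM. Dishes of a single line limit what the p-values measure to the spread between dishes. Symbols, exons and overlaps came from GENCODE release 44. Whole fragments were worked back from the steps in the FPKM, and used to describe depth. Alternatives were another pseudocount, no filter, a replicate block, single libraries left out, 2 scalings, voom on fragments, and a correction for GC content and length.

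The members and lists were chosen with earlier results of these data known. Named were members past 2-fold, the 8 largest rises and falls among called members, the 4 highest and lowest, members below the filter, the MRPS18 paralogs, 3 structural groups, and the 3 largest calls of each list. Further genes, the neighbours and the GC-rich repeat were named after their values or sequence had been seen. A gene of the hepatocyte list is not reported here.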

Additional observations from a re-analysis of the deposited data

How the results depend on the processing

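Over 14 alternatives, between 12 and 18 members were higher and 13 to 24 lower. Without PD replicate 3, 13 members were lower, and leaving out single libraries gave 12 to 17 higher and 13 to 19 lower. Median-of-ratios and upper quartile scaling each gave 13 higher and 24 lower. The calls over all genes tested shifted as well. In the main fit, 4588 of these 14400 genes were higher and 3780 lower. Median-of-ratios scaling gave 4259 and 4146, and upper quartile scaling gave 4167 and 4264. Leaving out PD replicate 3 gave 4137 and 3318. By limma voom on fragments 2 members were past 2-fold, MRPL41 and MRPS24, against 11.5% of all genes. The conserved large-subunit proteins had 11 called genes with no filter on FPKM, and 11 to 15 when single libraries were left out, with 11 each without DMSO replicate 3, PD replicate 2 and PD replicate 3. The mitochondria-specific large-subunit proteins had 14 with the GC and length correction. No pairing by replicate number was seen, with correlations of 0.01, -0.13 and 0.18 between the deviations of same-numbered libraries. With 3 libraries per group these values cannot show that the dishes were unpaired. The replicate block left 14 members higher and 20 lower, the central protuberance with 3 higher and 0 lower, and 1 regulator higher. The mitoribosomal proteins with other names had 1 call with no filter, 1 with the replicate block, and 1 without DMSO replicate 1 or 2 or PD replicate 1 or 3.

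Among the members, signs turned only in genes that were not called in the main fit, and those given here are examples. Others include MRPL4 (-0.10 to 0.13 over the 15 ways of fitting) and MRPS36 (-0.026 to 0.14). Of the genes whose sign turned, MRPS34, MRPL43 and MRPS2 were called in 1, 1 and 2 of the 15. MRPL11 had a log2 fold change of -0.021 with median-of-ratios and -0.033 with upper quartile scaling, and of -0.093 with the GC and length correction, with or without the block. With that correction, with or without the block, MRPL23 was at -0.014 and MRPS34 at -0.0010. MRPL53 was at -0.0029 with upper quartile scaling. With single libraries left out, MRPL11 ranged from -0.014 to 0.041, MRPL48 from -0.059 to 0.017 and MRPL53 from -0.056 to 0.11. The causes were not tested. Fewer than 100 fragments in a library stood behind 8 members, which limits what could be detected for them.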
